A study of Mus musculus with 5 samples.

Results

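The genes of the MAP kinase cascade were searched for Runx3 peaks and for H3K4me1 peaks in NKC (natural killer cells) activated with IL-2. Members were the protein-coding genes whose symbols name them as a MAP kinase (Mapk) or as a kinase of the next tiers up (Map2k, Map3k and Map4k), each followed by a number, and 40 of the 22208 protein-coding gene symbols of the mouse annotation met this rule. The rule reads gene names and no measured value. Each gene was searched over its body and 5 kb on either side, and a gene was called Runx3-bound or H3K4me1-marked when at least 1 peak overlapped that span by 1 bp or more.

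The cells were NKC from spleens of ICR mice, an outbred strain, enriched by negative selection and, per the paper, sorted by FACS for DX5+ cells. They were grown for 7 days in human recombinant IL-2 at 1000 units/ml. For ChIP-seq, chromatin of such cells, all NKp46+ per the labels, was precipitated with an in-house polyclonal antibody to Runx3 (2 libraries), a monoclonal antibody to H3K4me1 (1 library) or non-immune serum (NIS, 2 libraries), which served as the control for peak calling. The deposited lists hold 11676 Runx3 peaks and 34204 H3K4me1 peaks. The Runx3 list is 1 call on the joined reads of 2 libraries, and the H3K4me1 list rests on 1 library. Both give the position of a peak and no height, fold or p-value. The values given here are therefore positions and counts, with no replicate error, no reading of depth and no test, and the counts over all 40 members stand beside the share of all protein-coding genes. Among the marker genes checked, 7 of 7 NK genes carried a Runx3 peak and 6 of 7 an H3K4me1 peak. The counts were 1 of 4 and 3 of 4 for T cells and 1 of 3 and 1 of 3 for B cells. They were 2 of 3 and 2 of 3 for the myeloid list (Csf1r and Itgam). Of all protein-coding genes, 28.9% carried a Runx3 peak and 39.8% an H3K4me1 peak. A peak shows that the precipitated DNA was enriched over NIS in the population, and does not give the number of cells or the expression of a gene.

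In a MAP kinase cascade, kinases act on each other in series. A MAP4K or a small GTPase activates a MAP3K, which phosphorylates a MAP2K, and the MAP2K phosphorylates a MAPK of the ERK, JNK or p38 family, whose targets include transcription factors such as those of the AP-1 and ETS families. In NKC these cascades lie downstream of activating receptors and cytokine receptors and are known for their part in granule release and interferon-gamma production. Runx3 is a transcription factor of the RUNX family that binds the sequence TGTGGT and its variants, namely TGTGGC or TGCGGT or TGCGGC. H3K4me1, monomethylation of lysine 4 of histone H3, is known as a mark of enhancers and of the flanks of active promoters.

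The RUNX motifs nearest to the centre of the Runx3 peaks show the DNA the results turn on. The windows in this paragraph were read from the mm9 genome, 5′ to 3′ on the strand that carries the motif as spelled above, with RUNX motifs on either strand in capitals. The first set is from peaks whose centre lay within 1 kb of a transcription start site (TSS), and is shown because 3 of its 4 windows hold TGCGGC or TGCGGT.
Mapk6 chr9:75257887-75257932 (minus strand): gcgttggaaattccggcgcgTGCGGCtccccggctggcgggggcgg
Map2k2 chr10:80569033-80569078 (plus strand): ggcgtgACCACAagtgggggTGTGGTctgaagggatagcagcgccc
Map3k7 chr4:32050661-32050706 (minus strand): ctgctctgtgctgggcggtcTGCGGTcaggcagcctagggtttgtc
Map3k14 chr11:103128800-103128845 (minus strand): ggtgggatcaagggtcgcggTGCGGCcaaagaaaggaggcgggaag

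The next set is from peaks of the p38 genes Mapk14 and Mapk12 and of Map3k5 and Map3k11, all of which overlapped H3K4me1 peaks. The peak of Map3k11 also lay 126 bp from the start of another gene, Kcnk7. Each of these windows holds TGTGGT or TGTGGC, as do windows shown further below from peaks of Map4k4 and Map4k5 without such overlap.
Mapk14 chr17:28873650-28873695 (minus strand): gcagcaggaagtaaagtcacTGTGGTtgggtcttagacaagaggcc
Mapk14 chr17:28887811-28887856 (minus strand): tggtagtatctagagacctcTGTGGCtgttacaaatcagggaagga
Mapk14 chr17:28888895-28888940 (plus strand): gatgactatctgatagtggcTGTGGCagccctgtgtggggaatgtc
Mapk12 chr15:88961930-88961975 (plus strand): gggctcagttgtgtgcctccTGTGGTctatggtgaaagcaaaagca
Map3k5 chr10:19839321-19839366 (minus strand): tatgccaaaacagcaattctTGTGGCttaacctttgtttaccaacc
Map3k5 chr10:19843382-19843427 (plus strand): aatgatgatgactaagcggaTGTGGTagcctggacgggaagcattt
Map3k11 chr19:5704530-5704575 (plus strand): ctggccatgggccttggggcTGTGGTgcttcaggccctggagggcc

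Runx3 peaks were found at 23 of the 40 members, or 57.5% (95% Wilson interval 42.2 to 71.5), beside 28.9% of all protein-coding genes. H3K4me1 peaks were found at 32 members, or 80.0% (65.2 to 89.5), beside 39.8% of all genes. The intervals cover counting error only, take the genes as independent and are not a test against all genes. Both kinds of peak were present at 20 of the 40 members, beside 21.5% of all genes, and neither at 5 (12.5%, beside 52.8%). The members with neither were Mapk8, Map2k6, Map3k6, Map3k13 and Map3k15. The 3 members with Runx3 but no H3K4me1 peak were Mapk7, Mapk10 and Map3k7 (7.5%), beside 7.37% of all genes with Runx3 alone. H3K4me1 alone was present at 12 members, beside 18.3% of all genes.

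Length moves with these shares and is given beside them. The median member was 52.4 kb long, from 5.38 to 303 kb, whereas the median protein-coding gene was 15.5 kb. Bound members had a median length of 62.6 kb and unbound members 21.2 kb, and over all genes the medians were 27.9 and 11.8 kb. Within classes of length, the share of bound members was 38.5% (5 of 13) under 20 kb, 57.1% (4 of 7) from 20 to 50 kb, 72.7% (8 of 11) from 50 to 100 kb and 66.7% (6 of 9) at 100 kb or more. The shares over all genes in the same classes were 20.5%, 35.1%, 43.2% and 45.6%. H3K4me1-marked members made up 84.6%, 85.7%, 81.8% and 66.7% of these classes, and all genes 32.5%, 46.5%, 52.1% and 52.1%. Thus the members' share was the higher one in every class for both kinds of peak, with as few as 7 members in a class. Per 100 kb of summed span, members held 1.08 Runx3 and 4.42 H3K4me1 peaks, and all genes 0.819 and 2.47.

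**Figure D1:**
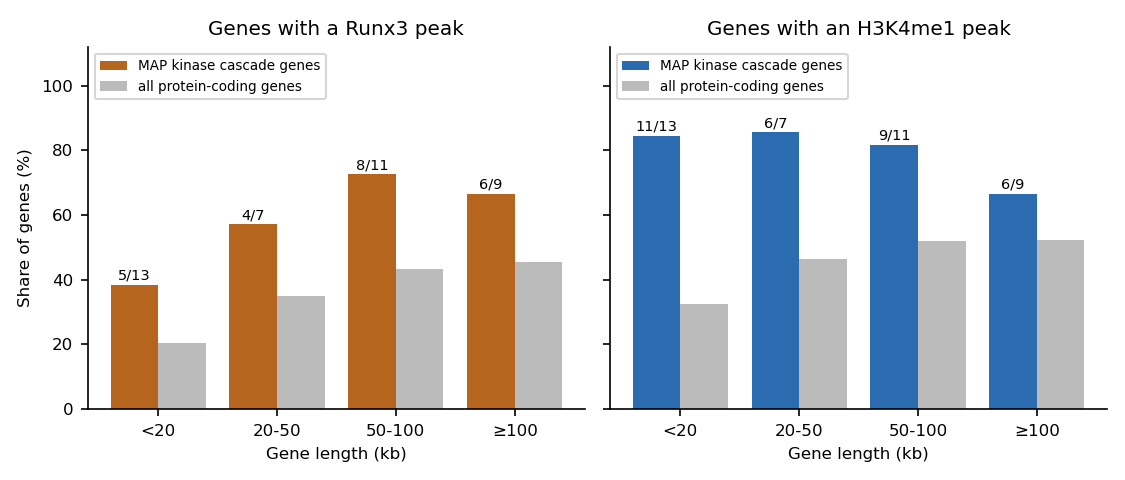
Share of genes (%, vertical axis) with a Runx3 peak (left) or an H3K4me1 peak (right) in 4 classes of gene length (kb, horizontal axis), for the 40 MAP kinase cascade genes (coloured bars, with the number of genes over each) and for all protein-coding genes (grey bars). The coloured bar is the taller one in each class, for Runx3 at 38.5% against 20.5% among the shortest genes.

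Among the bound members 20 of 23 (87.0%) also carried H3K4me1, and among the unbound 12 of 17 (70.6%). For the other protein-coding genes these shares were 74.4% and 25.7%. The median number of H3K4me1 peaks was 5 at bound members and 1 at unbound members, and over all genes it was 2 and 0. These numbers are not scaled to length, and bound genes were longer. Their median was 62.6 kb against 21.2 kb for members, and 27.9 against 11.8 kb over all genes. Most bound members had a single Runx3 peak (16 of the 40 members, beside 19.5% of all genes), while 5 had 2 peaks, Map3k5 had 3 and Mapk14 had 4. Thus 7 members (17.5%) had 2 or more Runx3 peaks, beside 9.41% of all genes, 2 had 3 or more (5.0%, beside 3.53%), and Mapk14 alone (2.5%) had 4 or more, beside 1.57%. For H3K4me1, 7 members (17.5%) held 7 or more peaks, beside 4.58% of all genes. The 4 members with 10 or more were Mapk14 (17), Map4k4 (11), Map2k2 (10) and Map3k5 (10), beside 2.53% of all genes, and 0.914% of all genes had 17 or more.

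**Figure D2:**
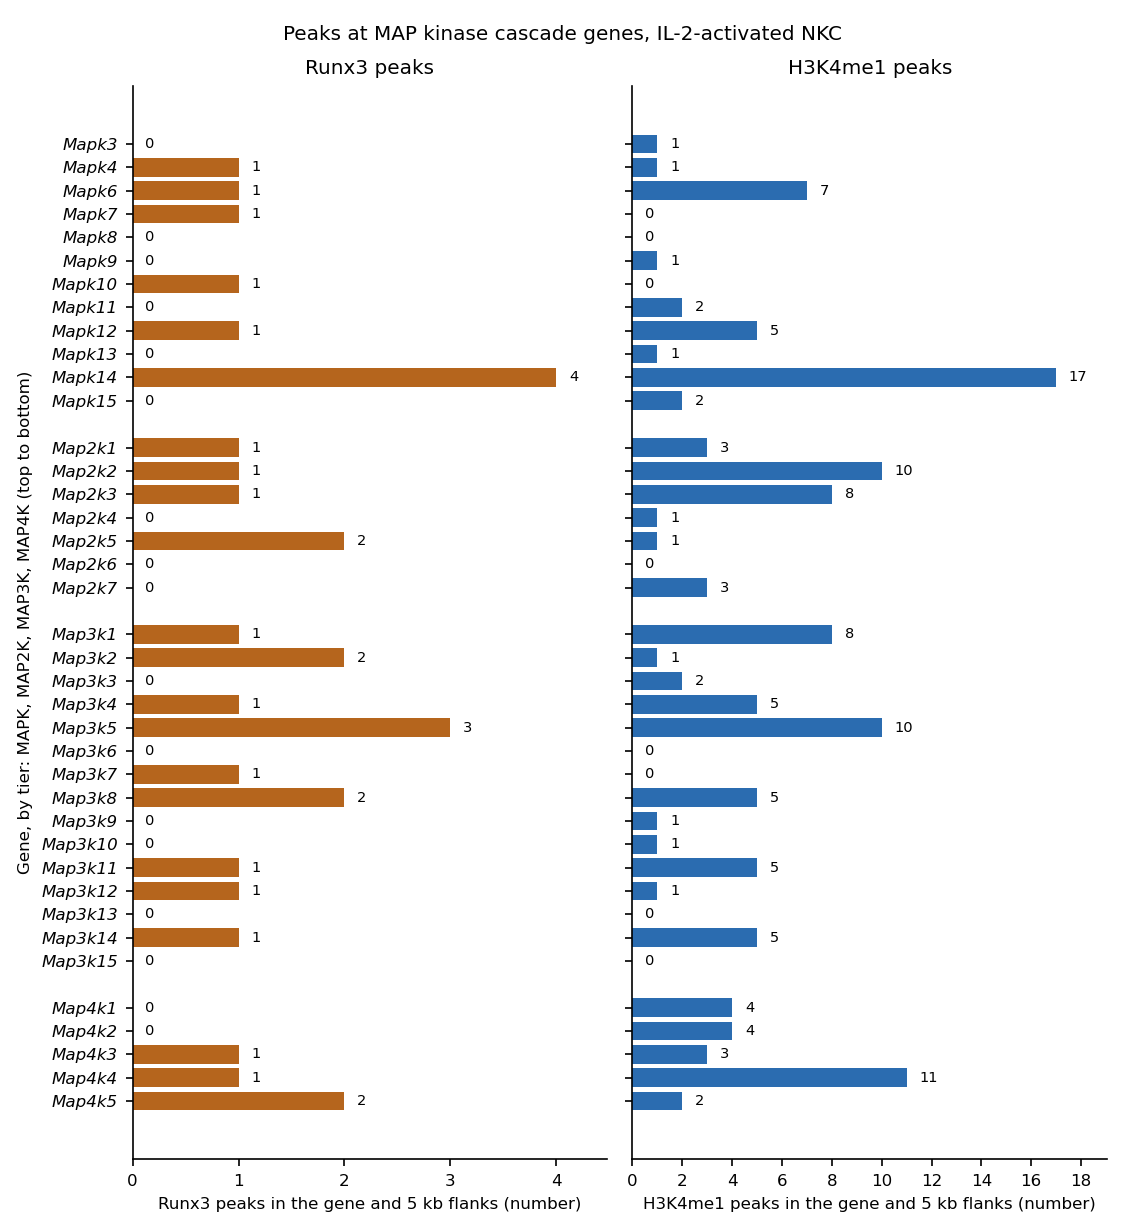
Number of Runx3 peaks (left) and H3K4me1 peaks (right) in each of 39 of the 40 MAP kinase cascade genes and their 5 kb flanks (horizontal axis), with genes on the vertical axis grouped by tier from MAPK at the top to MAP4K at the bottom. Mapk14 has the longest bar in both panels, with 4 Runx3 and 17 H3K4me1 peaks.

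The MAPK tier, whose kinases carry the signal to its substrates, held 13 genes. Runx3 peaks were present at 7 and H3K4me1 peaks at 10, with 11 Runx3 and 40 H3K4me1 peaks in all. The 4 p38 genes, which encode stress- and cytokine-activated kinases, had 5 of the 11 Runx3 peaks and 24 of the 40 H3K4me1 peaks, and all 5 Runx3 peaks overlapped an H3K4me1 peak. These peaks lay at only 2 of the 4, Mapk14 and Mapk12, whereas all 4 were marked by H3K4me1. The 3 JNK genes had 1 Runx3 peak and 1 H3K4me1 peak between them. Thus 33.3% were bound and 33.3% marked, beside 28.9% and 39.8% of all genes. Their searched span was 442 kb, with 313 kb of it at Mapk10, and that of the p38 genes was 124 kb. The 6 ERK and atypical genes had the other 5 Runx3 and 15 H3K4me1 peaks.

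Mapk14 encodes p38 alpha, the broadly expressed p38 kinase (chr17:28828287-28885349, plus strand, 57.1 kb). Its first Runx3 peak (chr17:28834949-28835670) was in intron 2, with its centre 7022 bp from the 5′ end of the gene, and the next (chr17:28873061-28874080) was in intron 9, at 45283 bp. The other 2 (chr17:28887498-28888069 and chr17:28888759-28889123) lay downstream of the gene, 689 bp apart. All 4 overlapped H3K4me1, by 309, 742, 508 and 365 bp in this order, and the last was covered over its whole length. The centres of the intronic peaks lay outside H3K4me1 peaks, with one within 2 kb on both sides, and those of the downstream peaks lay inside.

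The peak in intron 2 of Mapk14 held no RUNX motif and 2 ETS motifs (AGGAAA or AGGAAG or CGGAAA or CGGAAG, both strands searched), and the others held 2, 1 and 2 RUNX motifs. The 17 H3K4me1 peaks of Mapk14 fell in 3 stretches, with 9 in intron 2, 5 in introns 9 and 10 and 3 downstream, and covered 13.2% of the span. Each stretch held a Runx3 peak. Mapk13, encoding p38 delta, follows Mapk14 on the same strand. Among gene 5′ ends, that of Mapk13 was the closest to the last 3 Runx3 peaks, at 32682, 18469 and 17311 bp. The start of another Mapk14 transcript was closer to them, at 4994, 9219 and 10377 bp. Mapk13 itself had no Runx3 peak within 5 kb and 1 H3K4me1 peak of 1021 bp that covered its TSS. The downstream Runx3 peaks lie between the genes and cannot be assigned to either from these lists.

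**Figure D3:**
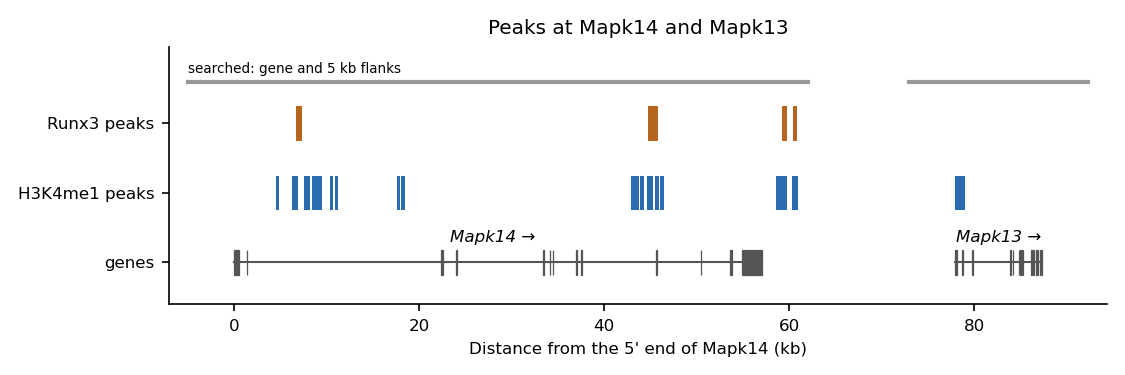
Runx3 peaks (brown) and H3K4me1 peaks (blue) along Mapk14 and Mapk13 (exons as grey boxes), with distance from the 5′ end of Mapk14 in kb on the horizontal axis; grey lines mark the spans searched. The 4 Runx3 peaks each sit on 1 of 3 groups of H3K4me1 peaks, and the single H3K4me1 peak of Mapk13 lies at its start.

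Mapk12, encoding p38 gamma, had 1 Runx3 peak in its last intron (chr15:88961623-88962262), with 4 RUNX motifs and 1 AP-1 motif (TGAGTCA or TGACTCA). This peak was overlapped over 434 bp by 2 H3K4me1 peaks, which left its centre uncovered. The 5′ end of Hdac10, a histone deacetylase gene, was closer to it (2812 bp) than that of Mapk12 (9191 bp). Although Mapk12 is only 10.1 kb long, 5 H3K4me1 peaks covered 24.2% of its span, the highest share among the members. Mapk11, encoding p38 beta, lies next to Mapk12 and had 2 H3K4me1 peaks, of which 1 (chr15:88970316-88970801) counted for both genes. It had no Runx3 peak, and the nearest lay 10.7 kb from the gene.

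Mapk3, encoding ERK1, had no Runx3 peak within 47.1 kb of the gene and a single H3K4me1 peak. At Mapk7, which encodes ERK5, a Runx3 peak (chr11:61307354-61308191) was centred in the untranslated part of an exon, 4 bp from a TSS, with 0 RUNX and 4 ETS motifs. The nearest H3K4me1 peak was 68850 bp from it. The gene Mfap4 lay within 5 kb of the same peak.

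The atypical kinases Mapk4 and Mapk6 (ERK4 and ERK3) each had 1 Runx3 peak, and Mapk15 had none. The peak of Mapk6 was centred 127 bp upstream of the gene, held 3 RUNX motifs, 2 of them TGCGGC, and had a GC content of 68.8%, the highest among the 33 peaks. Mapk6 carried 7 H3K4me1 peaks over 10.8% of its span, but none reached its Runx3 peak, the nearest being 1176 bp away. The peak of Mapk4 lay deep in intron 1, 78561 bp from the 5′ end, and H3K4me1 was 76510 bp from it.

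Among the JNK genes, Mapk8 (JNK1) had no peak of either kind and Mapk9 (JNK2) had 1 H3K4me1 peak of 303 bp. Mapk10, encoding JNK3, which is known mainly from nervous tissue, is the longest member (303 kb) and had 1 Runx3 peak in intron 9 of 13 (chr5:103396731-103397601). It lay 189030 bp from the nearest H3K4me1 peak, the largest such distance among the 33 peaks, and held no ETS motif. It contained 21 RUNX motifs, 18 TGTGGT and 3 TGTGGC, all on the plus strand and spread over 657 bp. The median member peak held 3 RUNX motifs, and 21 or more were found in 20 of the 8307 Runx3 peaks at protein-coding genes (0.241%). The commonest distance from 1 motif to the next was 15 bp, in 7 of 20 cases. A stretch of 150 bp is shown for the repeated unit, with RUNX motifs in capitals.
Mapk10 chr5:103397071-103397220 (plus strand): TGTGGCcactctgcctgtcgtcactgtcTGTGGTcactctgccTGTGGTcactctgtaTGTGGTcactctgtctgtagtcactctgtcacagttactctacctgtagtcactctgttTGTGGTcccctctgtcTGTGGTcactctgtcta
Since the authors kept uniquely aligned reads, the 40 bp words of each peak were compared with the genome. Only exact matches to the reference were counted, so alignment with mismatches is not covered. In the Mapk10 peak 98.1% of the words occurred once. Of the 33 peaks, 27 consisted of unique words throughout, and the lowest share was 86.2%, in the intron 1 peak of Map3k5. Whether the repeat bears on the Mapk10 peak was not tested.

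The MAP2K tier, the dual-specificity kinases that activate the MAPKs, held 7 genes. Runx3 peaks were present at 4 (Map2k1, Map2k2, Map2k3 and Map2k5) and H3K4me1 peaks at 6, with 5 Runx3 and 26 H3K4me1 peaks in all. Map2k2, encoding the ERK kinase MEK2, had a Runx3 peak in intron 1 (chr10:80568824-80569446) centred 45 bp from a TSS. It lay between H3K4me1 peaks that began 989 and 535 bp from its centre, with no overlap. The 10 H3K4me1 peaks of Map2k2 covered 17.4% of its span, and left the TSS itself free. Map2k1, encoding MEK1, had 1 Runx3 peak in intron 1 and 3 H3K4me1 peaks.

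Map2k3, encoding a p38 kinase kinase, had its Runx3 peak in intron 1 (chr11:60748686-60749356), 3486 bp from the 5′ end. H3K4me1 overlapped 559 bp of it, and 8 H3K4me1 peaks covered 23.9% of the span of Map2k3. Of the 8, 7 were in intron 1. Map2k6, the other p38 kinase kinase, had no peak of either kind, with Runx3 nearest at 116.9 kb and H3K4me1 at 394 kb. Map2k5, which activates ERK5, had 2 Runx3 peaks 10894 bp apart in introns 11 and 13, 91157 and 102517 bp from its 5′ end, and 1 H3K4me1 peak. The JNK kinases Map2k4 and Map2k7 had no Runx3 peak, with the nearest at 709 and 24.0 kb, while H3K4me1 was present at both and covered the TSS of Map2k7.

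**Figure D4:**
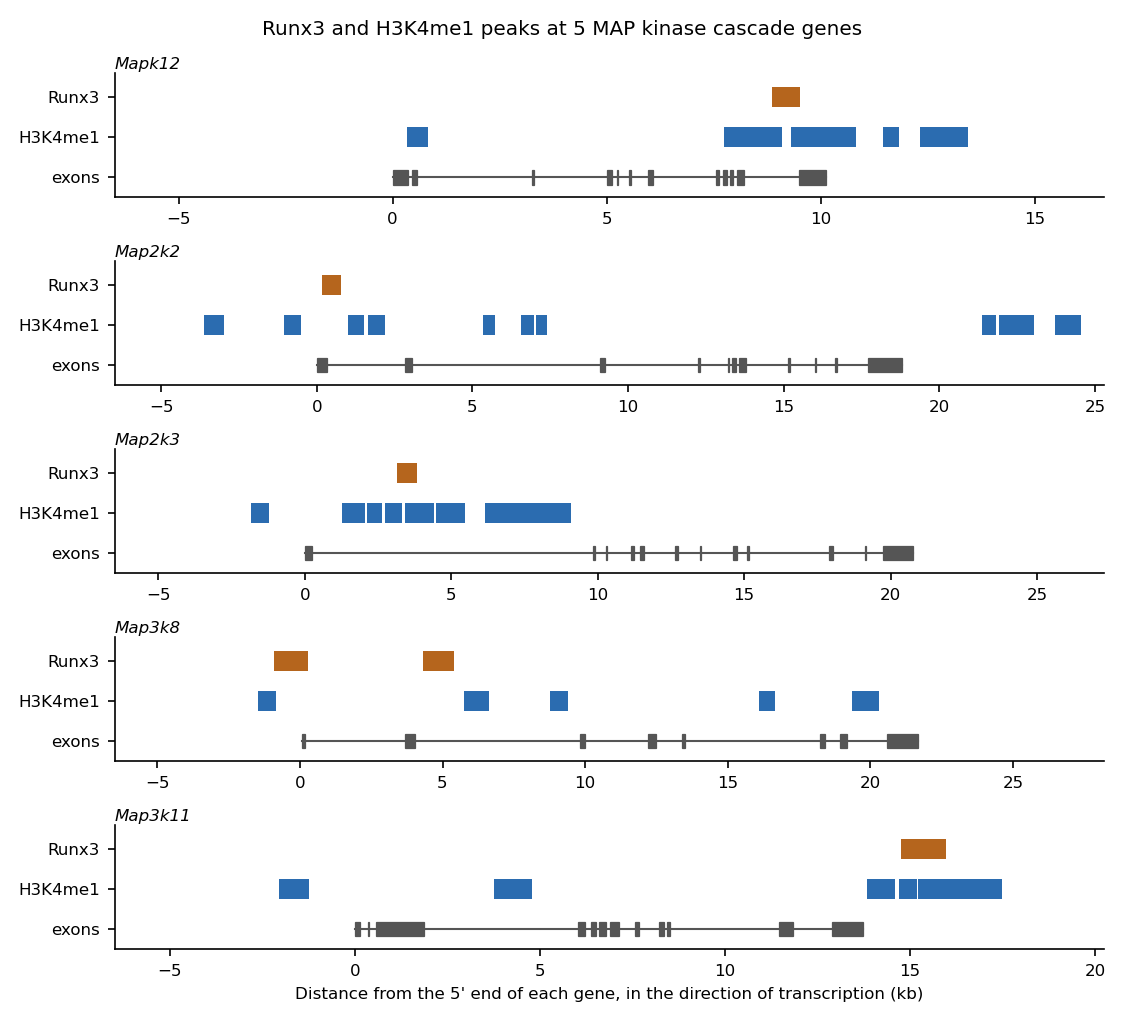
Runx3 peaks (brown), H3K4me1 peaks (blue) and exons (grey) at Mapk12, Map2k2, Map2k3, Map3k8 and Map3k11, with distance from the 5′ end of each gene in kb, in the direction of transcription, on the horizontal axis. The Runx3 peaks of Mapk12, Map2k3 and Map3k11 overlap H3K4me1 peaks, that of Map2k2 lies in a gap between them, and of the 2 at Map3k8 the one at the start touches an H3K4me1 peak.

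The MAP3K tier, where upstream stimuli enter the cascade, held 15 genes, of which 9 were bound by Runx3 and 11 marked by H3K4me1, with 13 Runx3 and 44 H3K4me1 peaks. Map3k5, encoding the stress-activated kinase ASK1, had 3 Runx3 peaks in a gene of 208 kb. The first was in intron 1, 57503 bp from the 5′ end, and lay 67 bp from an H3K4me1 peak without touching it. The others were 3288 bp apart in intron 23 (chr10:19839006-19839785 and chr10:19843074-19843759), and H3K4me1 covered all 780 bp of one and 341 bp of the other. Map3k1, encoding MEKK1, had 1 Runx3 peak in intron 1 that overlapped H3K4me1 by 122 bp, and 8 H3K4me1 peaks.

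Map3k8 encodes TPL2, which activates the ERK kinases downstream of inflammatory receptors. It had a Runx3 peak 305 bp upstream of the gene and another 4866 bp from the 5′ end, in an exon of a noncoding transcript, with 4 RUNX motifs in each. The upstream peak overlapped H3K4me1 by 58 bp. Map3k14 encodes NIK, the kinase of the noncanonical NF-kappaB pathway. Its Runx3 peak was centred 171 bp upstream of the gene, 4737 bp from the nearest of 5 H3K4me1 peaks. Map3k7, encoding TAK1, had a Runx3 peak centred 216 bp upstream and no H3K4me1 peak in its span, the nearest to that peak being 161894 bp away. Map3k4, encoding MEKK4, had a peak 240 bp upstream with 1 RUNX motif, TGCGGC.

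At 3 MAP3K genes a Runx3 peak lay within 1 kb of the start of another gene. The peak of Map3k11, which encodes the mixed-lineage kinase MLK3, lay downstream of the gene (chr19:5703887-5705099) and 126 bp from the 5′ end of Kcnk7, a potassium channel gene, with 1179 bp of its length covered by H3K4me1. One of the 2 peaks of Map3k2 (MEKK2) was downstream of the gene and 38 bp from the 5′ end of Ercc3, which encodes a helicase of DNA repair and transcription. The other was centred 694 bp upstream of Map3k2. The peak of Map3k12, encoding DLK, lay 1359 bp upstream and 231 bp from the 5′ end of Tarbp2, which encodes a partner of Dicer. Without the 5 kb flanks, Map3k2, Map3k11 and Map3k12 had no Runx3 peak and 20 of 40 members were bound, beside 23.2% of all genes counted the same way.

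The 6 MAP3K genes without Runx3 were Map3k3, Map3k6, Map3k9, Map3k10, Map3k13 and Map3k15. The nearest Runx3 peak was 9.71 kb from Map3k3 (MEKK3) and 14.6 kb from Map3k10 (MLK2), and 43.5 to 305 kb from the others. Map3k3 had 2 H3K4me1 peaks and Map3k9 and Map3k10 had 1 each.

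All 5 genes of the MAP4K tier, kinases of the germinal centre kinase family, carried H3K4me1, with 24 peaks, and 3 were bound by Runx3. None of their 4 Runx3 peaks overlapped H3K4me1. Map4k4 had 1 Runx3 peak in intron 2, 1955 bp from the 5′ end, and 11 H3K4me1 peaks, of which 8 were in the same intron. Map4k5 had Runx3 peaks in introns 1 and 2, and the one in intron 1 held 4 TGTGGT motifs, of which 2 stood side by side.
Map4k5 chr12:70979532-70979577 (minus strand): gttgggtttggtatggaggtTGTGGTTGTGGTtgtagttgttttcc
Map4k3, encoding GLK, had 1 Runx3 peak in intron 13 and 3 H3K4me1 peaks. Map4k1, which encodes HPK1, a negative regulator of antigen receptor signalling, and Map4k2 had 4 H3K4me1 peaks each and no Runx3 peak, the nearest being 22.2 and 36.9 kb away. H3K4me1 covered a TSS of Map4k2, as it did at Mapk13 and Map2k7. These were the only members so marked (7.5%, beside 6.62% of all genes), and none of the 3 was bound by Runx3. All 3 were under 20 kb long, a class in which 38.5% of members and 20.5% of all genes were bound. The bound share of all genes with a covered TSS is not given, so no link is read from these 3 genes. With an H3K4me1 peak centred within 1 kb of a TSS there were 8 members, beside 14.6% of all genes.

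The 33 Runx3 peaks of the members were then described together beside the 8307 Runx3 peaks at protein-coding genes. Their median width was 711 bp, from 299 to 1308 bp, and that of all was 712 bp. By their centres, 19 lay in introns, 8 of them in a first intron, 8 upstream, 4 downstream, 1 in a UTR and 1 in an exon of a noncoding transcript, and none in a coding exon. Counting 1 start per gene, the 5′ end of a gene other than the member was the closest to 14 of the 33. For some of these 14, at Mapk4, Mapk14, Map3k5 and Map4k5, another transcript of the member started closer than that 5′ end. A peak centred within 1 kb of a TSS was found at 8 of the 40 members, beside 13.3% of all genes, namely Mapk6, Mapk7, Map2k2, Map3k2, Map3k4, Map3k7, Map3k8 and Map3k14, so that 5 of the 8 were MAP3K genes.

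An H3K4me1 peak overlapped 12 of the 33 Runx3 peaks (36.4%, 22.2 to 53.4), beside 46.7% of all Runx3 peaks at genes. At a TSS of the member the overlap was 1 of 8, at Map3k8, and for the other peaks it was 11 of 25 (44.0%). Over all Runx3 peaks at genes, split by the TSS of any gene, it was 18.7% within 1 kb and 60.6% farther away. These splits are not alike. The 25 include the downstream peak of Map3k2 and those of Map3k11 and Map3k12, which lay within 1 kb of another gene's start. Among the 11 were those at Mapk14 (4), Map3k5 (2), Mapk12, Map2k3, Map3k1 and Map3k11. The centre of the Runx3 peak was inside H3K4me1 in 5 cases (15.2%, beside 27.6%), and in 5 more it lay between H3K4me1 peaks within 2 kb on both sides (15.2%, beside 13.7%). When at least 50% of the Runx3 peak had to be covered, 7 of 33 remained. Seen from the other side, 17 of the 134 H3K4me1 peaks at members overlapped a Runx3 peak (12.7%, beside 18.4% of H3K4me1 peaks at genes). Thus most H3K4me1 peaks at these genes, 95 of which lay in introns, had no Runx3 peak on them.

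**Figure D5:**
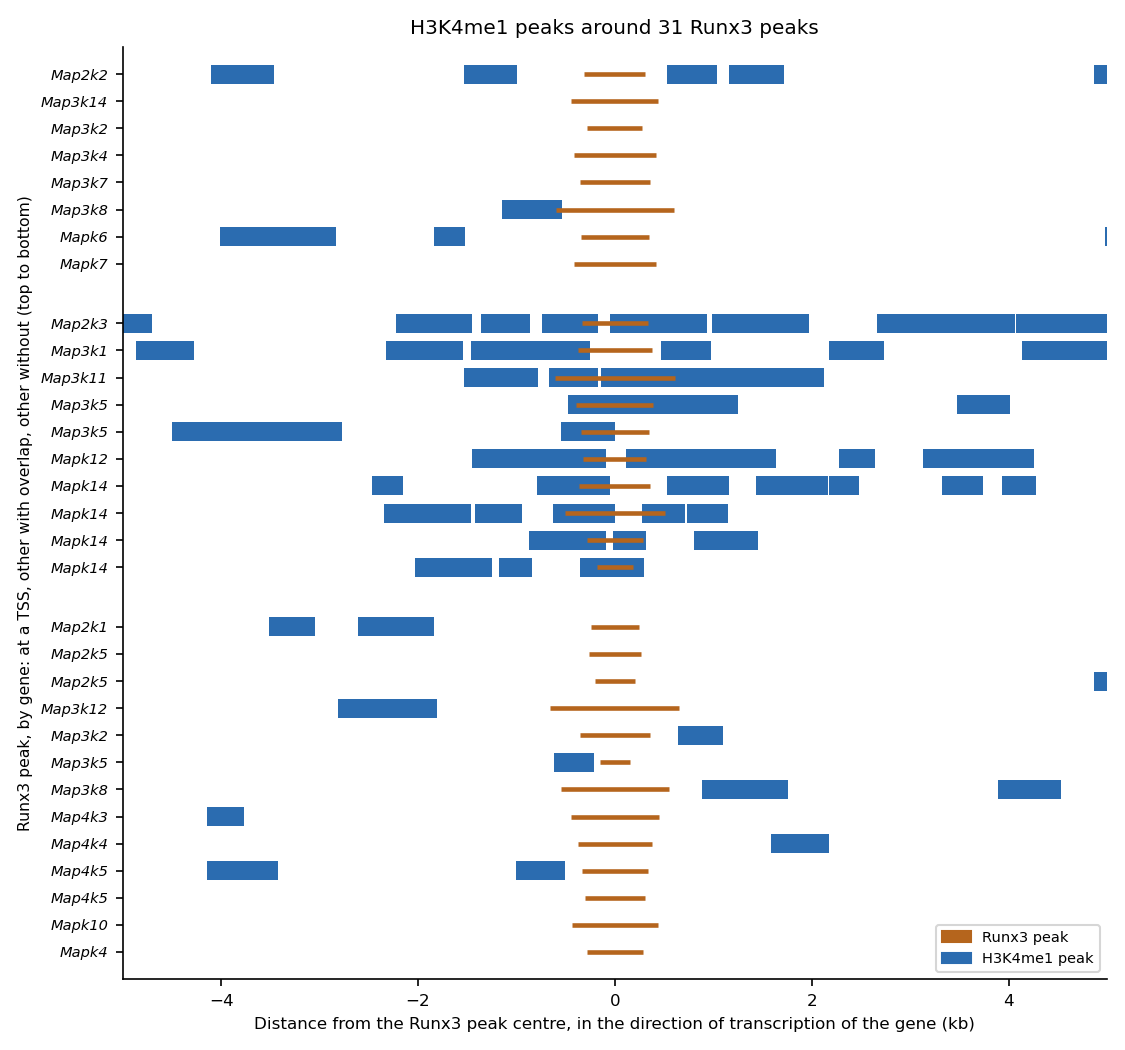
H3K4me1 peaks (blue) within 5 kb of the centre of 31 of the 33 Runx3 peaks (brown lines, drawn to their width), with distance in kb in the direction of transcription of the gene on the horizontal axis and 1 row per Runx3 peak. The top 8 rows are the peaks at a TSS of the member itself, of which 1 (Map3k8) overlaps H3K4me1. The middle 10 rows are other peaks that overlap H3K4me1 and the bottom 13 rows those that do not.

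Of the 33 peaks, 31 (93.9%) held a RUNX motif, both strands being searched, beside 95.8% of Runx3 peaks at genes and 75.0% of 64 equally wide windows placed 10 kb away on each side of the members' peaks (71.4% of such windows for all Runx3 peaks at genes). The 2 without one were the peaks at the TSS of Mapk7 and in intron 2 of Mapk14. In the central 200 bp a RUNX motif was present in 23 peaks (69.7%, beside 76.0%). An ETS motif was present in 30 peaks (90.9%, beside 91.5%, and 79.7% of the members' flanking windows or 84.5% of all) and an AP-1 motif in 8 (24.2%, beside 23.9%, and 12.5% or 12.8% of flanking windows). Thus the share with a RUNX, ETS or AP-1 motif was close to that of all Runx3 peaks at genes.

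Of the RUNX variants, TGTGGT was present in 25 peaks (75.8%, beside 73.1%), TGTGGC in 20 (60.6%, beside 57.3%), TGCGGT in 6 (18.2%, beside 24.7%) and TGCGGC in 4 (12.1%, beside 23.1%). TGCGGC was found in 3 of the 8 peaks at a TSS, those of Mapk6, Map3k4 and Map3k14, and in 1 of the 25 others, in intron 1 of Map2k1. TGTGGT was found in 4 of 8 and 21 of 25. These are small counts and the difference was not tested.

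A RUNX and an ETS motif lay within 50 bp of each other in 22 peaks (66.7%, beside 59.0%), RUNX motifs lay that close to each other in 14 (42.4%, beside 45.1%), and AP-1 and RUNX motifs in 5 (15.2%, beside 11.4%). AP-1 factors are themselves substrates and targets of these kinases, so windows with both motifs from introns of 3 members are shown, with RUNX and AP-1 motifs in capitals on the plus strand.
Map2k3 chr11:60749028-60749085: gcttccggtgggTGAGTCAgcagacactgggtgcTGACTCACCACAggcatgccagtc
Map3k5 chr10:19711752-19711799: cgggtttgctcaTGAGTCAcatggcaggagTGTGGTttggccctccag
Map4k4 chr1:39959693-39959736: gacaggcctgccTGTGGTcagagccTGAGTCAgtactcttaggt
In Map2k3 the second AP-1 motif shares its last base with the RUNX motif on the opposite strand. The first AP-1 motif lies 21 bp from that RUNX motif. In the other windows 11 bp (Map3k5) and 7 bp (Map4k4) separate the motifs. A match to these letters describes the sequence and does not show a bound site.

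Other genes of the pathway, from a list that does not overlap the members, were counted in the same way, and no difference from the members was tested. Of 35 such genes found in the annotation, 15 had a Runx3 peak (42.9%, beside 28.9% of all genes). An H3K4me1 peak was present at 23 (65.7%, beside 39.8%). Among Ras genes and their exchange factors 3 of 8 were bound, Sos2 (98.1 kb long) with 4 Runx3 peaks and Sos1 and Rasgrp1 with 2 each. Nras had no peak of either kind. Of the other kinases at the MAP3K level 3 of 6 were bound, while Braf had no Runx3 peak. The MAP4K-like kinases Mink1 and Tnik were both bound. Scaffolds and partners were bound at 2 of 8, where Ksr1, a scaffold for the ERK cascade, had 10 Runx3 and 29 H3K4me1 peaks, more of each than any member. Of the kinases downstream of MAPKs 5 of 11 were bound, including Mapkapk2, a substrate of p38, with 3 Runx3 and 13 H3K4me1 peaks, and Rps6ka1, a substrate of ERK, with 4 and 10.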

How the data were processed

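The authors aligned reads of 40 bp to mm9 with ELAND and kept those that aligned uniquely. They joined repeat libraries (H3K4me1 had 1 library) and called peaks with MACS against NIS, scaling the larger dataset to the smaller. The deposited lists hold peak positions in bp and no other value, so libraries could not be compared, depth could not be read from them and no test was run. Starts, counted from 0 in the lists, are given from 1.

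Genes, transcripts and sequence were those of GENCODE M1 and the same build (no peak passed a chromosome end), in place of RefSeq genes. Where a symbol had several entries (Map3k4 among the members) the longest was kept. Hras and Zak, also on the pathway list, were not found under those symbols. Locations are those of peak centres. Members were named with their counts, except 1 that is counted in the totals and not reported here singly. Peaks were described singly for members with the most Runx3 peaks or with one at a TSS, and sequence windows were set on the RUNX motif nearest to the peak centre. Windows within UTRs or on chromosome 18 are not shown. Other peaks, windows with paired motifs and the Mapk10 repeat were added for description. Members and lists were chosen with earlier results of these data known.

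Tools were Python 3.11.15, pandas 2.3.3, numpy 2.4.6, pysam 0.24.0, scipy 1.17.1 and matplotlib 3.10.9, and the assignment of peaks to genes was tested on simulated data.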

Additional observations from a re-analysis of the deposited data

How the results depend on the processing

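Of 42 alternative values, for other flanks, peak centres, nearest TSS within 50 kb, other TSS windows, joined peaks and the loss of the narrowest 25% of peaks, 39 stayed within 1.5 times the value reported. Under the 6 settings rerun over all genes, the members' share was above that of all genes for both kinds of peak. The H3K4me1 peaks at members, 134 as reported, came to 88 without the narrowest 25% and to 87 when peaks closer than 1 kb were joined, by construction of these settings. Runx3 peaks overlapping H3K4me1 came to 7 in place of 12 when at least 50% had to be covered. Runx3-bound members numbered 20 without flanks (beside 23.2% of all genes), 27 with flanks of 20 kb (67.5%, beside 41.2%) and 16 when each peak went to its nearest TSS only (beside 26.4%). The last setting gave the smallest gap between members and all genes, and none of these gaps was tested. No paired analysis was possible because the Runx3 list joins its libraries, the H3K4me1 list rests on 1 library and neither holds a value per library. A stricter peak threshold could not be applied, as the lists hold no score. Depth limits which sites were called and cannot be judged from these lists, so a gene without a peak is one at which none was called.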
